A study of Drosophila melanogaster with 8 samples.

Results

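Weak sites common to both isoforms of SIN3 were 1033 places in the Drosophila genome where a peak for each isoform appeared in the full peak lists but in neither of the stricter lists. They were chosen by the peak calls themselves, which rest on measured enrichment. Each was a SIN3 187HA peak left out of the filtered SIN3 187HA list that shared at least 1 bp with a SIN3 220HA peak left out of the filtered SIN3 220HA list, and that shared 0 bp with any filtered peak of either isoform. The 1033 peaks were 11.5% (95% exact interval 10.8 to 12.1%) of the 9011 unfiltered SIN3 187HA peaks. They met 1028 of the 8862 unfiltered SIN3 220HA peaks, which was 11.6% of that list.

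SIN3 is the scaffold of a histone deacetylase complex that carries the enzyme RPD3, and the complex is known mainly for repressing transcription by removing acetyl groups from histones. SIN3 187 and SIN3 220 are isoforms made from a single gene by alternative splicing, and they share most of their sequence, with different ends at the C terminus. In chromatin immunoprecipitation followed by sequencing (ChIP-seq), DNA cross-linked to a protein is recovered with an antibody, and a peak is a stretch where the recovered reads pile up above the input, which is chromatin sequenced without the antibody step.

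The series held 8 samples in 4 groups of 2, an HA immunoprecipitate and an input from each of 2 stable lines of S2 cells, a male line derived from Drosophila embryos. Both lines carried a tagged SIN3 cDNA behind a metallothionein promoter, which copper turns on. The SIN3 187HA line was treated with copper sulfate to induce the transgene, while the SIN3 220HA line was used without induction because the promoter leaked, so isoform, line and copper cannot be told apart in any comparison between the lists. Chromatin was cross-linked with formaldehyde and cut by MNase and sonication, and immunoprecipitate from cells without a tag was not analysed here.

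For each isoform the replicates had been joined before peaks were called with MACS2, so each peak had 1 value per isoform and no spread between replicates could be had. No test between the isoforms was therefore made, and the intervals given cover counting error alone. The fold enrichment is the height of the immunoprecipitate pileup at the summit, the highest point of the peak, over a background taken from the input. The p-value comes from the same pair of numbers, which allowed the pileup and the background to be recovered in reads. The same lowest background recurred at 11.3% of unfiltered SIN3 187HA peaks and another at 7.10% of unfiltered SIN3 220HA peaks. At such peaks the local input may have been lower than that value. The pileup came out whole to within 0.05 reads for 9008 of the 9011 SIN3 187HA peaks and for 8860 of the 8862 SIN3 220HA peaks. Library totals were not used here, so depth was not measured. The background had a median of 18.8 reads in the SIN3 187HA list and 28.2 reads in the SIN3 220HA list. All positions are on the dm3 build and are counted from 1. No annotation or sequence of that build was used here, so sites are described by position and no genes are given.

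Filtering had kept 4903 SIN3 187HA peaks and 5810 SIN3 220HA peaks and had left out 4108 and 3052. Among the left-out SIN3 187HA peaks, 1606 shared bases with a filtered peak of either isoform, which left 2502 that stood away from filtered peaks. The 1033 common weak sites were 41.3% (39.3 to 43.2%) of these 2502. The remaining 1469 met no SIN3 220HA peak and serve below as the nearest comparison. Seen from the other isoform, 1053 of 2510 SIN3 220HA peaks satisfied the mirrored rule, which was 42.0% (40.0 to 43.9%). Both rates count largely the same pairs over sets of nearly equal size, so their closeness is not a separate result. Left-out SIN3 220HA peaks covered 0.927% of the span of the 5 main arms (2L, 2R, 3L, 3R and X). That is a share of bases and not a rate at which peaks would meet, since 1 shared base was enough.

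The fold enrichments of the common weak sites were modest and reached a similar height in both isoforms. The SIN3 187HA fold had a median of 2.78, with quartiles of 2.37 and 3.20 and extremes of 1.11 and 4.52. The SIN3 220HA fold had a median of 2.64, with quartiles of 2.25 and 3.02 and extremes of 1.31 and 4.12. These values describe how the sites were selected, since stronger peaks had passed the filter. Among the 4367 pairs of filtered peaks shared by the isoforms, the medians were 6.28 and 7.49.

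In reads, the median site had a SIN3 187HA pileup of 53 over a background of 17.9, and a SIN3 220HA pileup of 71 over a background of 26.8. At a site, the SIN3 220HA background was a median of 1.45 times the SIN3 187HA background (quartiles 1.25 and 1.85). The part of sequencing depth in the larger SIN3 220HA numbers was not tested. The site at the median of the lower of the 2 folds, which stood below the median of either isoform alone, lay on X at 18279218 to 18279590, where 47 SIN3 187HA reads gave a fold of 2.43. The overlapping SIN3 220HA peak, at 18279027 to 18279590, had 57 reads and a fold of 2.50, with its summit 62 bp away.

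**Figure D1:**
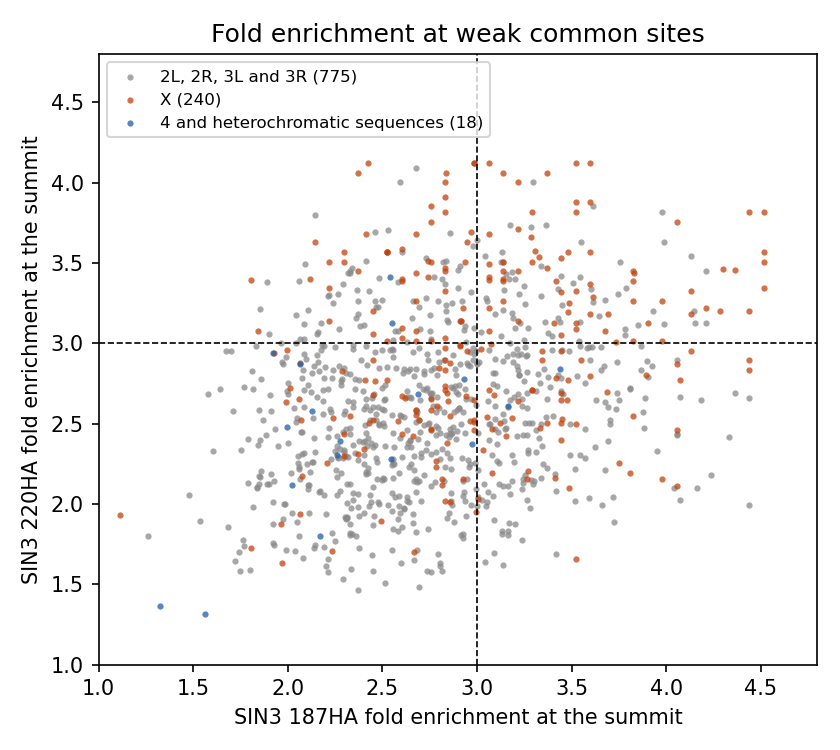
Fold enrichment over input of each of the 1033 common weak sites in SIN3 187HA (horizontal axis) and SIN3 220HA (vertical axis), both on linear scales, 1 point per site, coloured by chromosome group, with dashed lines at 3-fold. Most points lie at the lower left, where 537 sites were under 3-fold in both isoforms, and 133 lie at the upper right, at least 3-fold enriched in both.

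At 965 of the 1033 sites, the peaks of both isoforms fell short of the lowest p-value that the filter kept. Filtering in the study required reproducible ranks between replicates and at least 3-fold enrichment, and no kept peak had a -log10 p-value under 21.6 in the SIN3 187HA list or 21.9 in the SIN3 220HA list. At 362 common weak sites the SIN3 187HA peak was at least 3-fold enriched (35.0%, against 71.6% of all unfiltered SIN3 187HA peaks), and at 12 it reached the lowest kept p-value (1.16%, against 54.8%). The SIN3 220HA peak was at least 3-fold enriched at 267 sites (25.8%, against 73.0% of all unfiltered SIN3 220HA peaks) and reached the lowest kept p-value at 60 (5.81%, against 67.3%). In neither isoform did any site meet both marks. Nothing is read from these counts, because the filter that defined the sites used the same values.

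In combination, 133 sites were at least 3-fold enriched in both isoforms, 229 in SIN3 187HA alone, 134 in SIN3 220HA alone and 537 in neither. Of the 1033 sites, 478 were under 3-fold and short of the lowest kept p-value in both lists. The p-value was reached by SIN3 220HA alone at 56 sites, by SIN3 187HA alone at 8 and by both at 4. The 4 were on 2R at 1606069 to 1606973, in 2RHet at 3179576 to 3179825, on 3R at 5610034 to 5610436 and on X at 6751017 to 6751887, all with folds under 3 in both isoforms. At the X site the summits fell on the same base, with a SIN3 187HA fold of 2.79 and a SIN3 220HA fold of 2.61.

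The peaks nearest the lowest kept p-value were picked for that nearness and are given as a description. Just inside, a SIN3 187HA peak on X at 2487405 to 2488222 had a fold of 4.30 and a -log10 p-value of 21.61, and 1 on 2L at 495243 to 495743 had 3.27 and 21.59. Just outside, filtered SIN3 187HA peaks on 3L at 6488186 to 6488538 and at 14794916 to 14795414 had -log10 p-values of 21.62 and 21.63, with folds of 4.19 and 3.22. For SIN3 220HA, the nearest sites inside were those whose peaks met SIN3 187HA peaks on 3L at 2394090 to 2394657 and on 2R at 11425459 to 11425810, both with a -log10 p-value of 21.91 and with SIN3 220HA folds of 2.89 and 2.88. Filtered SIN3 220HA peaks just outside lay on 2R at 17771896 to 17772204 and on 3L at 10770361 to 10770587, with -log10 p-values of 21.92 and 21.93.

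A weak SIN3 187HA peak was more often met by a weak SIN3 220HA peak when it was stronger. The 2502 left-out SIN3 187HA peaks away from filtered peaks were put in 5 equal bins by -log10 p-value, from a median of 5.37 in the lowest bin to 17.6 in the highest. The share met by a weak SIN3 220HA peak was 30.7% (26.7 to 35.0%) in the lowest bin, then 35.4%, 42.3% and 46.6%, and 51.4% (46.9 to 55.9%) in the highest. The intervals of the lowest and highest bins did not overlap, while those of neighbouring bins did.

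Width moved with strength, from a median of 258 bp in the lowest bin to 393 bp in the highest, and a wider peak has more room to meet another. By width alone, the share met rose from 30.4% of the 490 peaks of up to 200 bp to 66.0% of the 188 peaks over 600 bp. A measure that does not count shared bases, the presence of a weak SIN3 220HA summit within 100 bp of the SIN3 187HA summit, held for 671 of the 2502 peaks (26.8%, 25.1 to 28.6%). It rose across the same 5 bins of p-value, from 17.4% (14.1 to 21.0%) to 37.8% (33.5 to 42.2%). This measure also moved with width, from 20.8% of peaks of up to 200 bp to 33.1% of those over 400 and up to 600 bp and 30.9% of those over 600 bp. The share met was therefore higher at stronger peaks by either measure. The measures are not separate, since 668 of the 671 peaks were common weak sites with the partner's summit within 100 bp. The filter used these p-values, and left-out peaks that met a filtered peak had been set aside, so the rise is a description. The part of width in either rise was not tested.

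**Figure D2:**
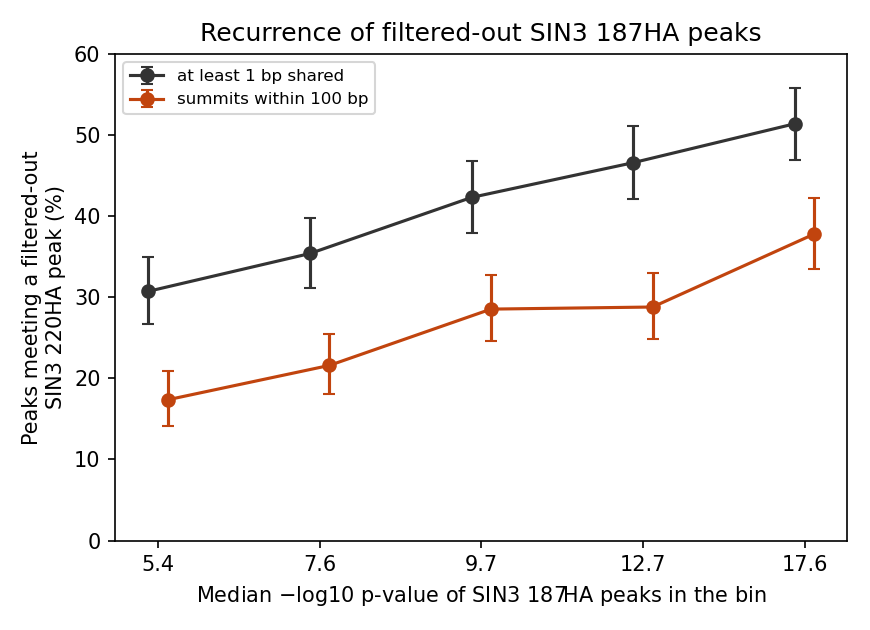
Percent of left-out SIN3 187HA peaks, away from filtered peaks, that were met by a weak SIN3 220HA peak, in 5 equal bins of SIN3 187HA -log10 p-value, by shared bases and by summits within 100 bp, with 95% exact binomial intervals. The shared-base values run from 30.7% to 51.4% and the summit values from 17.4% to 37.8%.

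Where both isoforms had a weak peak, the peaks mostly faced each other singly. Of the 1033 SIN3 187HA peaks, 1009 met 1 SIN3 220HA peak and 24 met 2, and 954 sites were 1-to-1 pairs. In 282 cases the SIN3 187HA peak lay inside the SIN3 220HA peak, in 223 the reverse held, and 528 pairs were staggered. The median shared stretch was 246 bp, with extremes of 21 and 1271 bp. It made up a median of 86.3% of the SIN3 187HA peak and 81.3% of the SIN3 220HA peak. At 693 sites the shared bases covered at least 50% of both peaks, which was 67.1% (64.1 to 69.9%) against 73.9% of all SIN3 187HA peaks that met a SIN3 220HA peak. Among filtered pairs the share was 84.7%, which was higher by 17.6 points (14.6 to 20.7).

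Summits of the paired peaks were within 100 bp no more often than among all SIN3 187HA peaks that met a SIN3 220HA peak. At the common weak sites the median distance between the summits was 54 bp, with quartiles of 15 and 143 bp and a range from 0 to 1349 bp. They were within 100 bp of each other at 668 sites, or 64.7% (61.7 to 67.6%), against 67.8% of all SIN3 187HA peaks that met a SIN3 220HA peak. The distance was at most 10 bp at 202 sites and 0 at 19, and it was over 500 bp at 20. Summit positions were not used to choose the sites, but peaks that share bases cannot have summits far apart unless they are wide.

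Filtered pairs more often had close summits than the common weak sites, although their peaks were much wider. Beyond about 200 bp the order turned, and the weak sites had fewer distant summits. The median distance in filtered pairs was 22 bp, and 75.5% (74.2 to 76.8%) were within 100 bp, a difference from the weak sites of -10.8 points (-14.1 to -7.70). The difference also stood within bands of SIN3 187HA peak width. The SIN3 220HA widths were not matched and the widest band had no upper limit, so the part of width was not tested. Among peaks over 250 and up to 400 bp wide, summits were within 100 bp in 69.1% (64.0 to 73.8%) of 362 weak sites and in 86.0% (81.2 to 89.9%) of 264 filtered pairs. Over 400 and up to 600 bp they were 62.7% (56.4 to 68.7%) of 252 and 82.2% (79.5 to 84.8%) of 833. In peaks over 600 bp the shares were 44.4% (35.4 to 53.5%) of 124 weak sites and 72.7% (71.1 to 74.3%) of 3204 filtered pairs. Up to 250 bp they were 69.5% (63.9 to 74.7%) of 295 weak sites and 83.3% (72.1 to 91.4%) of 66 filtered pairs, a difference of -13.8 points (-22.8 to -1.98), against -28.4 points (-36.9 to -19.4) in the widest peaks.

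Within the common weak sites, summits were closer where the weaker of the paired peaks was stronger. In 4 equal groups by the lower of the -log10 p-values, the share within 100 bp was 57.1% (50.9 to 63.3%), 63.6%, 68.2% and 69.8% (63.8 to 75.3%), and the median distance was 79, 55.5, 44.5 and 37.5 bp. The lowest and highest groups differed beyond their intervals. The p-values that formed these groups also went into the choice of the sites, so this is a description. Summit distance varied less with location. Summits were within 100 bp at 63.8% of the 240 sites on X and at 65.0% of the 775 sites on the autosomal arms. The share was 62.5% of the 400 sites within 1 kb of a filtered peak and 66.0% of the 633 farther away.

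**Figure D3:**
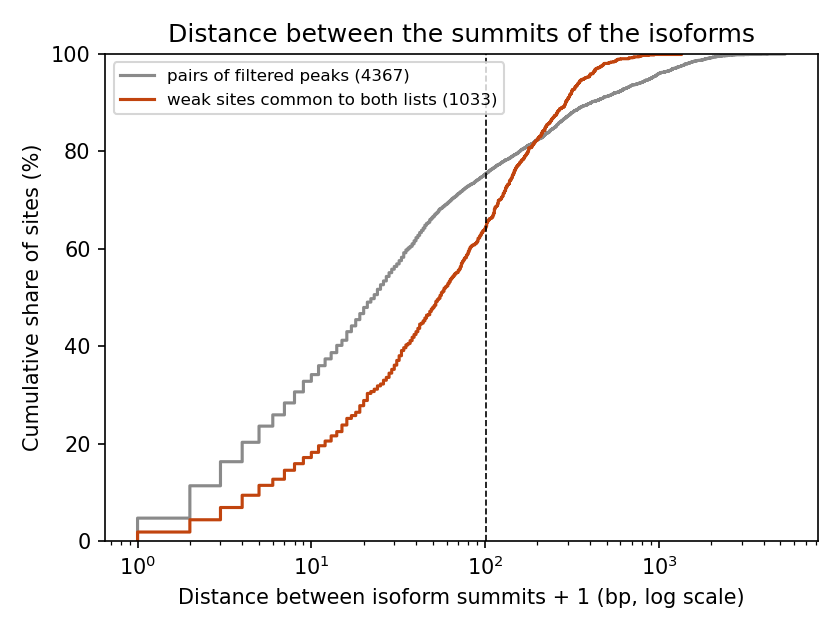
Cumulative percent of sites (vertical axis) by the distance in bp between the SIN3 187HA and SIN3 220HA summits, plus 1 (horizontal axis, log scale), for the 1033 common weak sites and the 4367 filtered pairs. At 100 bp the weak sites reach 64.7% and the filtered pairs 75.5%, and the curves cross near 200 bp.

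The common weak sites were narrow. The SIN3 187HA peaks had a median width of 342 bp, with quartiles of 234 and 478 bp, and their SIN3 220HA partners a median of 372 bp. Filtered pairs had medians of 850 and 1017 bp. The weak SIN3 187HA peaks that met no SIN3 220HA peak were narrower again, with a median of 273 bp. Peaks of up to 200 bp, close to the least width in the lists of 178 and 179 bp, were 149 of the common weak SIN3 187HA peaks, or 14.4% (12.3 to 16.7%), against 7.98% of all unfiltered SIN3 187HA peaks. They were 23.2% (21.1 to 25.5%) of the weak SIN3 187HA peaks without a partner. On the SIN3 220HA side, 108 of the partners were this narrow, or 10.5%, against 6.14% of all. Since wider peaks meet others more often, the greater width of the common sites is partly set by the rule. In all they covered 401.9 kb in SIN3 187HA, of which 292.6 kb were shared, against 4904 kb for the filtered SIN3 187HA peaks.

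The clearest common weak sites were those with the highest value of the lower of the 2 folds. The lead was shared by 3 sites with a lower fold of 3.82. On X at 1738236 to 1738567, SIN3 187HA had 57 reads (exact Poisson interval 43.2 to 73.9) over a background of 12.1 and a fold of 4.44. Its SIN3 220HA peak, at 1738382 to 1738620, had 61 reads (46.7 to 78.4) over 15.2 and a fold of 3.82, with the summits 13 bp apart. Both backgrounds stood at the lowest value of their list.

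Both of the other leading sites also had backgrounds at the lowest value. On 2L at 3513669 to 3513965, 51 SIN3 187HA reads gave a fold of 3.98 and 61 SIN3 220HA reads a fold of 3.82, with summits 32 bp apart and a filtered peak 451 bp away. On X at 2136009 to 2136374, 58 and 61 reads gave 4.52 and 3.82, and that SIN3 187HA fold was the highest among the common weak sites, tied at 4 sites on X. Few reads over a low background are set by the ranking, since a high fold over more reads would have reached the kept p-values. On X at 141457 to 141687, 52 and 60 reads gave 4.06 and 3.75. On 3R at 23772521 to 23772839 the summits were 1 bp apart, with 54 and 58 reads and folds of 3.99 and 3.63. The sixth site, on 2L at 21096609 to 21096932, had 47 and 71 reads, folds of 3.61 and 3.85, and no filtered peak within 5058 bp.

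On the remaining arms the leading sites were weaker. On 2R at 5026229 to 5026730, 47 SIN3 187HA reads and 67 SIN3 220HA reads gave folds of 3.54 and 3.41, with summits 12 bp apart. On 3L at 13473632 to 13473858, 45 and 65 reads gave 3.28 and 3.72. On the small chromosome 4, at 487201 to 487409, 64 and 98 reads gave 3.44 and 2.84 over higher backgrounds of 17.9 and 33.9 reads.

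Wide stretches of shared signal were few, and their summits did not always coincide. The most bases were shared on 2R at 3263406 to 3264863, where 1271 bp were common to a SIN3 187HA peak of 3.45-fold and a SIN3 220HA peak of 2.68-fold with summits 54 bp apart. On X at 8789692 to 8790875, 1054 bp were shared and the summits were 319 bp apart. On 2R at 1598512 to 1599441, 930 bp were shared and the summits were 559 bp apart, over a SIN3 187HA background of 73.1 reads.

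Of the measures compared over all 1033 sites, the background was the most closely related between the isoforms, followed by the pileup. Across the 1033 sites the SIN3 187HA and SIN3 220HA backgrounds had a Spearman correlation of 0.68 (Pearson 0.78 on the log2 scale), and 0.55 (0.74) over the 835 sites above the lowest value of both lists. On the autosomal arms alone it was 0.55 (0.67) over 775 sites. The pileups had a Spearman correlation of 0.54 (Pearson 0.69) over all sites, near those narrower background values. The fold enrichments had a Spearman correlation of 0.27 (Pearson 0.30), and the widths 0.19. In the 4367 filtered pairs the order was different, with 0.61 for fold, 0.61 for background and 0.69 for width, and pileup was not compared there. These correlations are across sites, which share their libraries, and sites are not independent replicates. The fold among weak sites was also confined by the filter to a narrow range. The part of that range in the fold correlation was not tested.

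**Figure D4:**
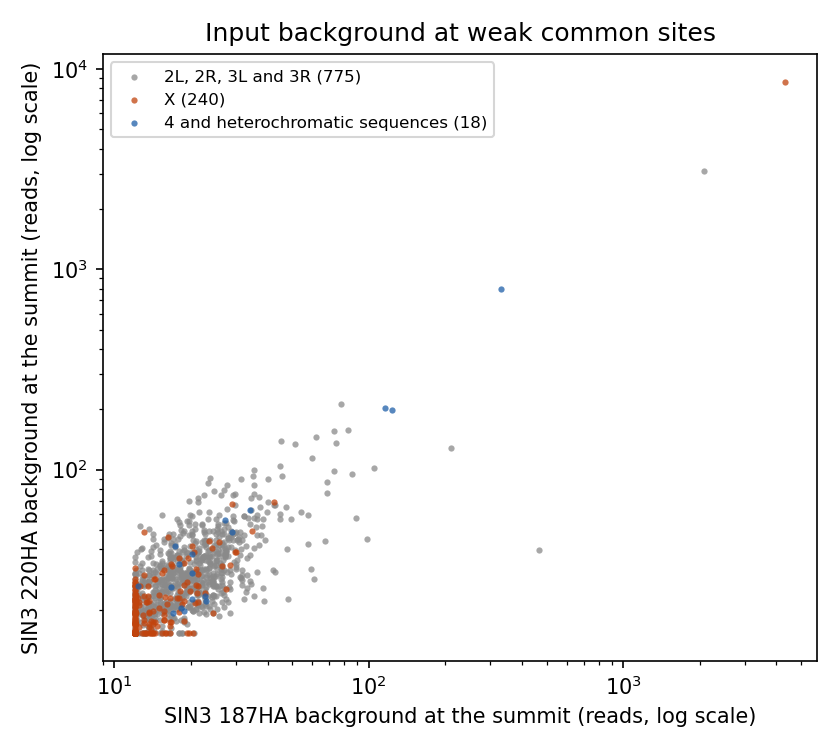
Recovered input background in reads at the summits of the 1033 common weak sites in SIN3 187HA (horizontal axis) and SIN3 220HA (vertical axis), both on log scales, 1 point per site, by chromosome group. Points rise together, with a Spearman correlation of 0.68, and many X points stand at the lowest background of 12.1 and 15.2 reads.

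A few common weak sites lay where the input itself was very high. The background was at least 4 times the list median at 13 sites in SIN3 187HA (1.26%, against 0.733% of unfiltered peaks), at 14 in SIN3 220HA (1.36%, against 0.643%) and at 8 in both. The extreme was on X at 5571216 to 5571483, where 4814 SIN3 187HA reads stood over a background of 4321, a fold of 1.11. The SIN3 220HA peak there had 16675 reads over 8628 and a fold of 1.93, with a -log10 p-value of 1279. On 3R at 5610034 to 5610436 the backgrounds were 2071 and 3093 reads and the folds 1.26 and 1.80. At such depth a fold of under 2 gave a very small p-value, and duplicate reads had been kept.

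The lowest ratio of SIN3 220HA to SIN3 187HA background, 0.0854, was found on 3R at 17484557 to 17485120, a site named after its values were seen. Its SIN3 187HA peak had 972 reads over 467 (fold 2.08) and its SIN3 220HA peak 67 reads over 39.9 (fold 1.66). The high input at this site was thus seen in the SIN3 187HA line and not in the SIN3 220HA line.

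The common weak sites were spread over all main arms, and they were most frequent per length on X. There were 186 on 2L, 186 on 2R, 189 on 3L, 214 on 3R, 240 on X, 12 on chromosome 4 and 6 in heterochromatic scaffolds. Per Mb between the outermost peaks this was 10.7 on X and 7.68 to 8.80 on the autosomal arms. Filtered SIN3 187HA peaks were instead least frequent on X among the main arms, with 32.4 per Mb on X and 39.0 to 47.9 on the autosomal arms.

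X held 23.2% (20.7 to 25.9%) of the common weak sites, against 17.7% of all unfiltered SIN3 187HA peaks. The share in filtered pairs was 14.2% (13.2 to 15.3%), and the difference was 9.01 points (6.32 to 11.9). In the weak SIN3 187HA peaks without a partner X held 19.9% (17.9 to 22.1%), a difference of 3.29 points (0.0298 to 6.60) whose interval came close to 0. In the weak SIN3 220HA peaks without a SIN3 187HA partner X held 23.4% (21.3 to 25.7%), close to the share in the common weak sites. The X share thus differed more from that of filtered pairs than from that of weak peaks of either isoform without a partner. Among sites at least 3-fold enriched in both isoforms, X held 51.1% (42.3 to 59.9%) of 133, and among those under 3-fold in both it held 13.4% (10.6 to 16.6%) of 537. Nothing is read from this split, because a site with a high fold that the filter left out must have few reads over a low background, and low backgrounds were mostly on X.

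The background on X was lower than elsewhere. S2 cells are a male line, with fewer copies of X than of the autosomes. The median background at the common weak sites on X was 12.1 reads in SIN3 187HA and 17.0 in SIN3 220HA, against 19.6 and 29.4 on the autosomal arms. The SIN3 187HA median on X stood at the lowest value of its list, and the local input may have been lower. The median pileup was also lower, at 44 and 58 reads against 56 and 77, while the folds were higher, at 2.99 and 2.99 against 2.70 and 2.56. Sites with a SIN3 187HA background at its lowest value numbered 166 (16.1%, against 11.3% of unfiltered peaks), and 136 of them were on X. For SIN3 220HA they numbered 116 (11.2%, against 7.10%), with 94 on X.

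Above that lowest SIN3 187HA background, X held 12.0% (9.91 to 14.3%) of 867 common weak sites, 11.9% (10.1 to 13.8%) of the weak SIN3 187HA peaks without a partner and 9.21% (8.33 to 10.1%) of filtered pairs. The difference from filtered pairs was then 2.79 points (0.586 to 5.27), and that from peaks without a partner was 0.142 points (-2.62 to 3.01). The share of weak SIN3 187HA peaks that were met by SIN3 220HA behaved in the same way, at 45.0% on X and 40.0% on the autosomal arms over all 2502 peaks, a difference of 5.00 points (0.28 to 9.76). Above the lowest background it was 41.1% and 40.5%. Setting these sites aside lowers the X share of every set by construction, because most of them were on X, at 81.9% among the common weak sites, 67.9% among the weak peaks without a partner and 74.2% among filtered pairs. Sites were set aside by the SIN3 187HA background alone, and not by that of SIN3 220HA. The intervals cover counting error over sites that share their libraries, so they are not read as tests. The part of X copy number in these values was not tested.

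**Figure D5:**
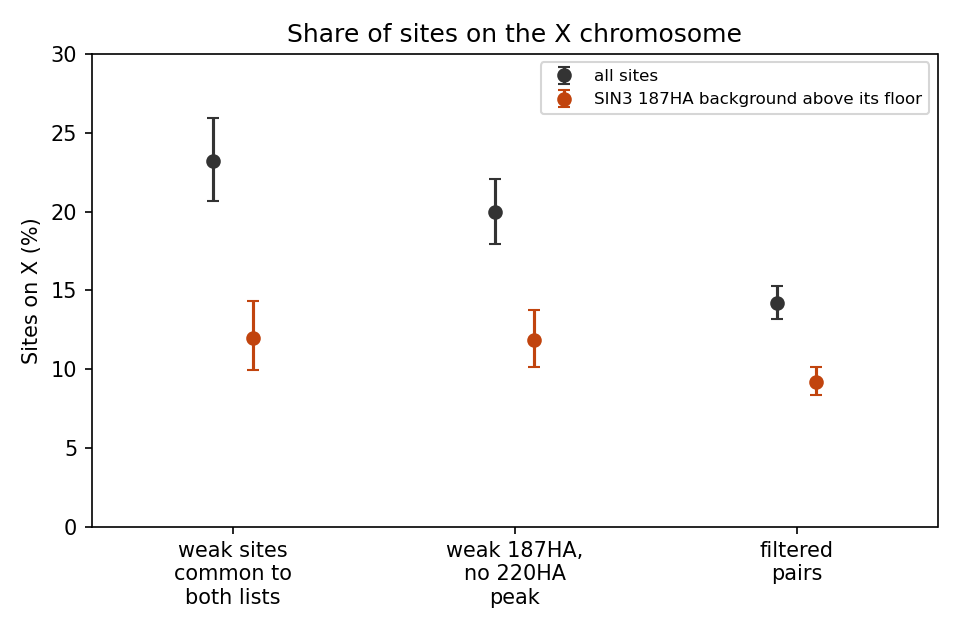
Percent of sites on X, with 95% exact binomial intervals, for the common weak sites, the weak SIN3 187HA peaks without a partner and the filtered pairs, over all sites and over sites above the lowest SIN3 187HA background (the floor). The common weak sites fall from 23.2% to 12.0% and the filtered pairs from 14.2% to 9.21%.

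Many common weak sites lay near filtered peaks. The median distance to the nearest filtered peak of either isoform was 1717 bp, with quartiles of 533 and 5597 bp. A filtered peak was within 1 kb of 400 sites, or 38.7% (35.7 to 41.8%), against 35.5% of all 2502 weak peaks. The share in the 1469 peaks without a partner was 33.3% (30.9 to 35.8%), lower by 5.43 points (1.62 to 9.26). No filtered peak was within 10 kb of 148 sites, or 14.3% (12.2 to 16.6%), against 20.4% (18.3 to 22.5%) of the peaks without a partner. The share within 1 kb was near that of all 2502 weak peaks, and somewhat above that of weak SIN3 187HA peaks without a partner. The common weak sites were also wider than the peaks without a partner, and the part of width was not tested.

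The most isolated sites were in heterochromatic scaffolds, where filtered peaks were rare. The farthest was in 3RHet at 790928 to 791107, 1107808 bp from a filtered peak, with folds of 1.33 and 1.36 over backgrounds of 329 and 798 reads and summits 1 bp apart. The next were in 2RHet at 3180173 to 3180527 and at 3179576 to 3179825, with SIN3 187HA folds of 1.56 and 2.93. The latter had 342 SIN3 187HA and 565 SIN3 220HA reads, a SIN3 220HA fold of 2.78 and summits 12 bp apart. Of the 22 unfiltered SIN3 187HA peaks in heterochromatic scaffolds 6 were common weak sites, which was 27.3% (10.7 to 50.2%). Of the 46 on chromosome 4 they were 12, or 26.1% (14.3 to 41.1%), against 10.6% (9.86 to 11.3%) of peaks on the autosomal arms. These shares count filtered peaks too. Of the 23 weak peaks on chromosome 4 that stood away from filtered peaks, the 12 were 52.2% (30.6 to 73.2%), an interval that took in the 40.0% of the autosomal arms. The 12 had a median fold of 2.40 in SIN3 187HA and 2.54 in SIN3 220HA.

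Most sites stood alone, as 725 had no other common weak site within 5 kb. Runs of at least 3 sites with gaps of up to 5 kb numbered 26 and held 88 sites. The longest held 6 sites in 5.16 kb on 3R, from 5324597 to 5329760. Its SIN3 187HA folds ran from 2.81 to 3.67 and its SIN3 220HA folds from 1.58 to 2.93, over backgrounds of 15.3 to 27.6 and 25.3 to 38.7 reads, and its summit distances ran from 2 to 447 bp. The first 2 of its SIN3 187HA peaks met the same SIN3 220HA peak, so the run held 5 SIN3 220HA peaks, each under 3-fold. Of the 7 runs of 4 sites, that on 3L from 642386 to 652133 had raised backgrounds, of 59.7 to 82.7 reads in SIN3 187HA and 114 to 212 in SIN3 220HA. Another on 3L, from 3405779 to 3416711, had 60.9 to 98.1 and 28.6 to 57.6. That on 2L from 12420785 to 12424940 had 27.9 to 54.0 and 30.9 to 61.3. The remaining runs of 4 sites had lower SIN3 187HA backgrounds. These were 17.9 to 26.4 reads on 3R from 19764902 and 12.1 to 19.3 on X from 17187406. On X from 3994827 and from 13282781 they stood at the lowest value of the list.

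Between the isoforms, the fold was higher in SIN3 187HA at 614 sites (59.4%, against 32.9% of all SIN3 187HA peaks that met a SIN3 220HA peak) and higher in SIN3 220HA at 419. The median log2 ratio of SIN3 220HA to SIN3 187HA fold was -0.09, against 0.24 in filtered pairs. The thresholds that left these sites out capped each fold at a different place and the lists differed in background, so no direction is read from the ratio.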

How the data were processed

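HA immunoprecipitates and inputs were sequenced from S2 lines expressing SIN3 187HA or SIN3 220HA, 2 replicates each, grouped by sample title. Per the labels, the submitters' processing notes name CASAVA 1.8.2, Bowtie2, MACS2 2.1.0 and the dm3 build. As the study describes it, reads were aligned with Bowtie2 and peaks called with MACS2 against input, keeping duplicate reads, so amplified fragments can add to pileups. Peak names show that replicates had been joined. The deposited unfiltered lists hold, per peak, a score, a ratio (fold enrichment at the summit) and p-values and q-values on the -log10 scale, computed by the authors. The deposited filtered lists hold positions alone, for peaks passing an irreproducible discovery rate threshold and 3-fold enrichment. They are recorded under input samples, and their starts count from 1.

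Filtered peaks were matched on chromosome, start and end. Where several SIN3 220HA peaks overlapped a site, that sharing most bases was its partner. Pileup and background were recovered by taking the fold as (pileup + 1)/(background + 1) with a Poisson model of the p-value, the chance of a pileup above that seen. The lowest background was 12.1 reads for SIN3 187HA and 15.2 for SIN3 220HA. Shares have 95% exact (Clopper-Pearson) intervals, differences in share Newcombe intervals and pileups exact Poisson intervals, all of counting error. Overlaps of 7746 pairs were checked against bedtools 2.31.1, with 0 differing. Python 3.11.15, numpy 2.4.6, pandas 2.3.3, scipy 1.17.1 and matplotlib 3.10.9 were used.

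The members, lists and rules were chosen with earlier results of these data known. Named sites were the 6 of highest lower fold, the leader on each of 2L, 2R, 3L, 3R, X and 4, the 3 sharing most bases, the 3 of highest lower background, the 3 farthest from filtered peaks, the longest run, and the 2 nearest either side of each lowest kept p-value. Sites reaching the p-value in both lists, the site of median lower fold and that of lowest background ratio were added after their values were seen. Alternatives were other overlaps, thresholds, distances, partners and chromosomes.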

Additional observations from a re-analysis of the deposited data

How the results depend on the processing

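Of 113 values recomputed under 13 alternative settings for 14 results, 84 stayed within the 95% interval of the reported value, or for the number of sites within 1.5 times of it, and 29 did not. The number of sites fell from 1033 to 864 and 693 under the 50% overlaps below and to 819 at the stricter q-value. The share of weak SIN3 187HA peaks met by SIN3 220HA, 41.3%, became 34.5% when shared bases had to cover at least 50% of the SIN3 187HA peak, 27.7% when they had to cover 50% of both, 39.2% at 1 kb or more from filtered peaks, and 26.8% by summits within 100 bp, an alternative chosen after seeing the data. The share of summits within 100 bp, 64.7%, became 67.9% and 71.9% under the 50% overlaps, 73.3% at 3-fold or more in both lists, 48.4% within 50 bp and 82.7% within 200 bp, and the median distance became 40 bp at 50% of both peaks. Requiring 3-fold in both lists left 135 sites (133 by the partner sharing most bases, and 2 more by another overlapping peak), with 51.1% on X, medians of 3.45 and 3.34 for fold, 51 and 66 for pileup and 12.7 and 18.1 for background in SIN3 187HA and SIN3 220HA, a median SIN3 220HA width of 435 bp and a median distance to filtered peaks of 2352 bp. A -log10 q-value of at least 5 in both lists gave median folds of 2.90 and 2.68 and pileups of 55 and 74. Keeping 1 kb from filtered peaks left 633 sites. Median widths became 321 bp (SIN3 187HA) and 392 bp (SIN3 220HA) at 50% of the SIN3 187HA peak, 352 bp (SIN3 220HA) at 50% of both, and 354 bp (SIN3 187HA) counted as SIN3 220HA peaks. The cause of these shifts was not tested beyond the settings' own construction. No paired analysis was possible because replicates were joined before peaks were called, and for the same reason leaving out each replicate was not run. Depth limits sites of few reads, whose counting intervals are wide.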

Other observations

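Weak SIN3 220HA peaks without a SIN3 187HA partner numbered 1457. Their median fold was 2.52 (quartiles 2.17 and 2.88), with a median pileup of 61 reads, a background of 23.4 reads and a width of 277 bp, and X held 23.4% of them. A further 1158 filtered SIN3 220HA peaks met only left-out SIN3 187HA peaks, and X held 21.0% (18.7 to 23.4%) of these, which differed from the common weak sites by 2.25 points (-1.23 to 5.74).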
